A study of Ambystoma mexicanum with 61 samples.

Results

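The cytosolic ribosomal protein genes of the axolotl (Ambystoma mexicanum) were described over all tissues and both states of the bulk RNA-seq dataset. A gene model belonged to the group when its symbol, read without regard to case, began with RPL or RPS and a digit, with RPSA or with RPLP, and models of the RPS6K kinases were left out. This gave 67 of 23251 gene models, 39 with a large subunit (RPL) symbol and 28 with a small subunit (RPS) symbol, under 52 distinct symbols. The choice used names alone and no measured value. The name of the group fits 62 of the members, which carry 47 distinct core symbols. Of the other 5, RPL26L1 and RPL7L1 carry symbols of paralogues, Rps16-ps2 and rps28p9 carry symbols of pseudogenes, and RPS19BP1 encodes a protein that binds a ribosomal protein.

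Each cytosolic ribosome joins a small subunit, which holds the mRNA and reads its codons, with a large subunit, which forms the peptide bonds. Each ribosomal protein is present about once per ribosome, and in vertebrates the mRNAs of most of them start with a pyrimidine tract through which the mTOR pathway sets their translation together. Their mRNA is abundant in growing and secreting tissues.

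The dataset compared neotenic axolotls, which keep larval traits as adults, with axolotls in which metamorphosis had been induced. Both were of the d/d strain and 12 months old. The metamorphosed animals had received 50 nM thyroxine (T4) in their medium, with gill and fin loss seen after about 12 days, and were kept 2 weeks more until the gills were gone. Whether T4 was given in these weeks is not given in the sources used here. The 34 neotenic libraries came from 17 tissues with 2 libraries each. The 27 metamorphosed libraries came from 15 tissues, of which brain, heart and fore limb had 1 library and the other 12 had 2. The study states 2 animals per state, so that the tissues of a state share their animals, and p-values over libraries are too small as a statement about animals. The labels number the libraries of a tissue as batch 1 and batch 2 and do not say what a batch is. Which animals were sampled in which batch cannot be told apart from the batch itself. In bulk tissue, a lower level can come from fewer cells of a type or from less RNA per cell, and these cannot be told apart.

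Libraries held from 69278 counts, in metamorphosed skin of batch 1, to 27389476 counts, and no 2 were identical. Levels are given as CPM, counts scaled to the library total times its TMM factor, and shares are of the library total itself. The library labelled neotenic stomach of batch 2 held 7.12 CPM in stomach marker genes and 15028 CPM in keratinocyte markers, and the library labelled neotenic tail of batch 2 held 18490 CPM in stomach markers and 19.0 CPM in skeletal muscle markers. Both go against their labels, and the results are given with and without them. Neotenic gonad of batch 2 held 2024 CPM in germline markers and that of batch 1 held 20.6 CPM. Neotenic bladder of batch 2 held 9033 CPM in skeletal muscle markers and 85.6 CPM in germline markers, and that of batch 1 held 17.4 and 1.42 CPM. This bladder library was left out only where each library was left out in turn. Of the 25 metamorphosed libraries outside intestine, 19 held counts in all 7 matched intestine markers, and 4 stood above the other libraries of their tissues. In these 4 the markers summed to 3451 CPM in metamorphosed skin of batch 2, 3523 CPM in fore limb, 3317 CPM in hind limb of batch 2 and 1994 CPM in bladder of batch 2. In the other metamorphosed libraries of these tissues they summed to 443 CPM in skin and 242 CPM in hind limb, and to less in bladder, and in the 8 neotenic libraries of skin, limbs and bladder to between 11.1 and 57.4 CPM. Metamorphosed liver held 22615 and 16866 CPM in these markers and metamorphosed kidney 2544 and 1326 CPM, and the other 17 held between 3.31 and 747 CPM. Neotenic liver held 30287 and 18735 CPM and neotenic kidney 2165 and 1572 CPM. The sum therefore does not mark intestine alone. The 4 libraries of skin, limbs and bladder also held between 47.4 and 77.3 CPM in germline markers, and metamorphosed intestine of batch 2 held 40.3 CPM. The other metamorphosed libraries held at most 2.64 CPM. In intestine itself the intestine markers summed to 37889 CPM in metamorphosed batch 1 and 8817 CPM in batch 2. Intestine of batch 2 was kept where the 4 libraries were left out.

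The 67 members held a median of 2.69% of the counts of a neotenic library, with a range from 0.333% to 4.93%. In a metamorphosed library they held a median of 4.16%, with a range from 1.42% to 6.13%. The ranges overlapped widely. Models of other names, such as a model annotated 60S, are outside these shares, which are not those of all ribosomal protein genes. The mean was 2.92% ± 1.18 (SD, n = 34) and 3.96% ± 1.51 (SD, n = 27). Without the stomach and tail libraries that go against their labels, the neotenic mean was 2.90% ± 1.20 (SD, n = 32). These medians and means cover unlike tissues. Gill and gonad were among the neotenic libraries alone, and brain, heart and fore limb had fewer metamorphosed libraries. Over the 12 tissues with paired libraries the neotenic and metamorphosed means were 3.41% and 3.43% in batch 1, and 2.98% and 4.77% in batch 2. Large subunit members held between 1.14 and 1.62 times the counts of small subunit members, in every library more. This ratio depends on which models the name rule found, and 15 large and 2 small subunit members held under 10000 counts. Over the 61 libraries the Spearman correlation of the share with the library total was -0.11 and that with the number of detected genes was -0.27, given as descriptions.

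Brain and eye stood at the low end of the order of neotenic tissues. Neotenic brain held 1.49% and 0.997%, and the single metamorphosed brain library held 1.42%. Neotenic eye held 1.501% and 1.39%, and neotenic liver held 1.503% and 2.13%. Kidney, lung and skin stood at the high end in neotenic axolotls, with 4.93% and 3.74% in kidney, 4.20% and 4.65% in lung and 4.44% and 3.67% in skin. In metamorphosed axolotls the highest values were those of kidney, with 5.67% and 6.13%, and spleen, with 5.62% and 5.63%, and the lowest after brain was that of liver, with 1.44% and 2.38%. Neighbouring neotenic tissues in this order did not differ beyond the spread of their pairs, and neither did metamorphosed kidney and spleen. The place of liver was different on the CPM scale, where the TMM factors of its metamorphosed libraries were 0.57 and 0.44. Members with at least 10000 counts had means of 8.16 and 9.52 log2 CPM in metamorphosed liver and of 8.96 and 9.08 in metamorphosed spleen. In neotenic liver 41 of 54 tested members had a higher estimate than the mean of the other tissues, with a median log2 difference of 0.20. Neotenic gonad, with 3.93% and 0.333%, covered nearly the whole neotenic range within 1 tissue. The 2 libraries of a neotenic tissue differed by between 1.02 times in bladder and 11.8 times in gonad. The bladder pair includes the batch 2 library with the muscle markers given above. Across the 17 neotenic tissues the order in batch 1 and that in batch 2 had a Spearman correlation of 0.46, or 0.56 without gonad and 0.52 without stomach and tail. Across the 12 metamorphosed tissues it was 0.48.

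**Figure D1:**
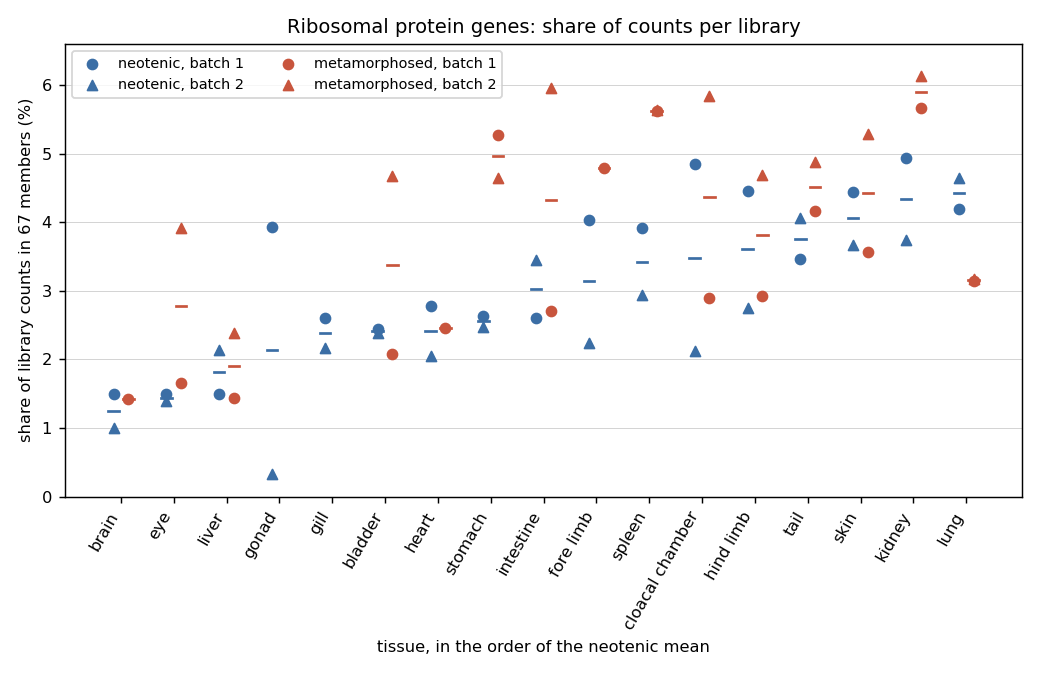
Share of library counts in the 67 ribosomal protein gene models (percent, vertical axis) for every library, by tissue in the order of the neotenic mean. Circles are batch 1, triangles batch 2, and short lines the mean of a tissue in 1 state. Brain and eye lie low, neotenic gonad runs from 3.93% to 0.333%, and metamorphosed triangles lie above the neotenic ones of the same tissue in all paired tissues other than lung.

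The counts were very uneven among members. RPL7, a large subunit protein, held 7.68% of all member counts, RPL13 held 7.46%, and RPL4, which lines the exit tunnel of the nascent chain, held 5.95%. Per length, the median over 61 libraries was highest for RPL17 (model AMEXTC_0340000066526_RPL17) with 2904 CPM per kb of exon, RPS7 with 2483 CPM per kb, RPL13 with 2460 CPM per kb and RPL7 with 2222 CPM per kb. In all, 50 members held at least 10000 counts over the 61 libraries (lowest 11872), and 17 members held between 7 and 6269 counts, which together was 0.0775% of member counts.

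The low members were, with 1 exception, models that share exon bases with another model. Of the 17 members under 10000 counts, 16 shared between 23.2% and 97.7% of their exon bases with a model on the opposite strand. Of the 50 members above, 1 shared at least 20%, which was RPL28 with 53.9%. Over all 23251 models, 9.18% shared at least 20%. The counting used no strand and, by the defaults of the counting tool, left out fragments that overlap 2 models, so that for these members the counts hold only the part of the transcript outside the overlap. The same relation was present among all models, where the median total was 76 counts with at least 20% shared and 3475.5 counts with none shared.

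For 14 of the 18 members with any shared base, the partner was another member with the same protein name, so that the locus is annotated on both strands. RPL10, needed for the joining of the subunits, had 2 such models on scaffold AMEXG_0030013669 of the AmexG_v3.0.0 assembly, from 1 to 120131 on the plus strand and from 66157 to 103030 on the minus strand, which shared 82.5% and 84.3% of their exon bases and held 38 and 56 counts in all. RPL5, which carries the 5S ribosomal RNA into the large subunit, had models with 141 and 8 counts. RPL3, which shapes the site of peptide bond formation, had 6269 counts in rpl3 and 48 in rpl3.L. The models rplp0.L of RPLP0, the base of the stalk that recruits elongation factors, held 4049 and 11 counts, and those of RPL18 held 7 and 57. RPL27A shows both cases at 1 locus on scaffold AMEXG_0030000644. Its model from 5913382 to 5917646 shared no base and held 62806 counts, and a pair of opposite models from 5921902 and 5921917 to 5948416 shared 94.4% and 97.7% and held 11 and 7 counts. RPL35A shared 73.2% with IQCG and held 472 counts, and rps27a, a ubiquitin fused to a small subunit protein, shared 68.5% with an unnamed locus and held 399 counts. The exception was rps21, with 123 counts and no shared base. The values of RPL3, RPL5, RPL10, RPL18, RPL35A, RPLP0 and RPS27A therefore leave out a part of the transcript, and their levels are not compared with those of other members. RPL28, with 53.9% of its exon bases shared and 142062 counts, is named below under the same limit on its level.

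**Figure D2:**
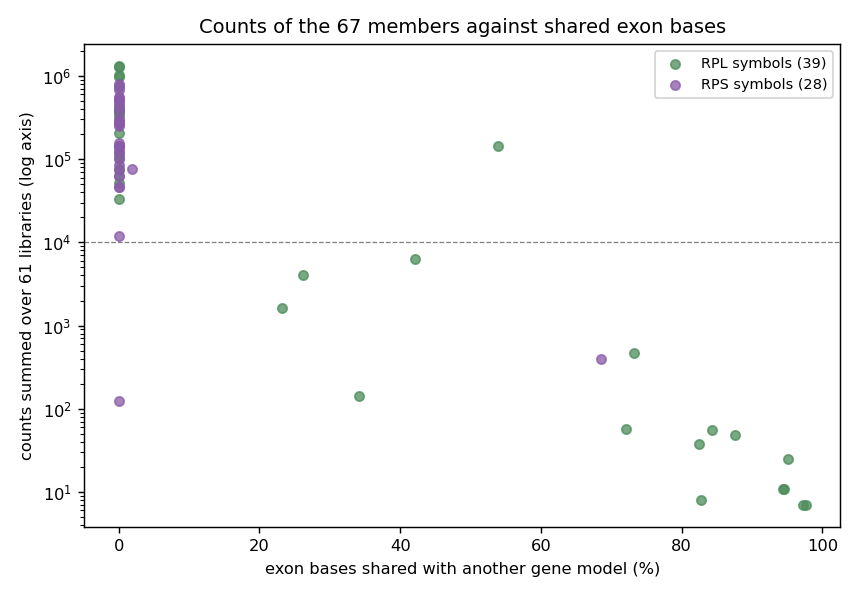
Counts summed over the 61 libraries (vertical axis, log scale) against the percent of exon bases that a member shares with another gene model, for the 67 members. Green points are RPL symbols and purple points RPS symbols. Of the 17 members below the dashed line at 10000 counts, 16 share at least 23.2%, and of the 50 above it, 1 does so beyond 20%.

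The members with at least 10000 counts rose and fell together across libraries. With levels as log2 CPM (prior count 2), the correlation of a member with the mean of the other members over 61 libraries had a median of 0.92 over 50 members (Spearman 0.90), and 44 of them had at least 0.8. All points of such a correlation share the library, its scaling and its tissue, and the values are descriptions. RPS23, of the decoding centre, and RPS6, the small subunit protein phosphorylated by S6 kinase, followed the mean most closely, with 0.99 each. The lowest was RPS19BP1 with 0.08, whose product binds RPS19 and regulates SIRT1 in mammals. RPL7L1, a paralogue of RPL7 with a part in ribosome assembly, had 0.74, and 1 of the 2 RPS13 models (AMEXTC_0340000142309_RPS13) had 0.75. RPL26L1 and rps28p9 did not stand apart in this way. The member mean carried 84.9% of the variance of the 50 members. The median correlation was 0.96 in neotenic and 0.89 in metamorphosed libraries. Neotenic gonad of batch 2 had the lowest member mean, 4.51 log2 CPM, and neotenic brain of batch 2 the next, 5.94. That gonad library was kept in all these values, so that the 2 medians are not set against each other.

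What was left after the member mean had a leading axis with 41.9% of the remaining variance. At one end of it were RPL13A, RPL36, rps24, RPL28 and Rps16-ps2, and at the other were both models of RPS13, RPS7 and RPL17. These members were chosen after their values were seen. The libraries at the RPL13A end were metamorphosed skin of batch 2, hind limb of batch 2, fore limb and bladder of batch 2. These are the 4 libraries with the intestine marker sums given above, with scores from 6.03 in skin to 3.55 in bladder. Metamorphosed brain (3.27) and skin of batch 1 (2.90) came next, with intestine marker sums of 132 and 443 CPM. The other end held neotenic libraries, the lowest being hind limb of batch 1 (-3.04). In metamorphosed skin of batch 2, RPL13A stood at 1694 CPM and RPL36 at 897 CPM, the highest levels of both in the dataset, while RPS13 stood at 28.8 and 21.9 CPM in its models. The part of the intestine markers in this axis was not tested.

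Genes outside the group were searched for the same pattern. Of 20157 genes compared over 61 libraries, the most alike to the member mean was an unnamed gene model with a correlation of 0.98, followed by a model annotated 60S (0.97) and TPT1 (0.97), a growth-related protein whose mRNA starts with the same tract. Among the first 10 were also eef1b2.L (0.95), a subunit of the factor that recharges elongation factor 1, and RACK1 (0.95), a protein of the small subunit. The remaining 5 were DBF4B and 4 models named only by a locus number.

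The neotenic tissues were compared to ask whether any tissue sets its ribosomal protein mRNA apart. edgeR's quasi-likelihood test was fitted to the 34 neotenic libraries and 18982 genes, of which 54 were members, and 13 members were not tested for low counts. Differences among the 17 tissues passed an adjusted p of 0.05 for 3 members, RPS19BP1, RPL27A and RPL7L1, while 71.5% of all genes passed. With gonad included, members varied about as much within tissues as between them. The median SD of a member between tissue means was 0.88 on the log2 scale, and the median SD between the 2 libraries of a tissue was 0.89, a median ratio of 0.95. The gonad pair enters these SDs, with means of the well-counted members of 8.45 and 4.51 log2 CPM in its libraries. No SD without gonad is given. For 5082 other genes expressed at least as highly as the lowest of the well-counted members the median ratio was 1.41. The SD between tissues was among the largest for RPL36 and RPS18 (1.04 and 1.02). Among the 50 members with at least 10000 counts it was smallest for RPS19BP1 (0.49).

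Leaving out gonad libraries changed this count most, and other fits that kept them changed it too. Without both neotenic gonad libraries, 47 of 54 members passed, where 76.2% of all genes did. Without gonad of batch 1 it was 50 of 56 members, and without gonad of batch 2 it was 44 of 56. With the batch as a block 18 of 54 members passed, where 72.3% of all genes did, and with DESeq2 19 did. Without the stomach and tail libraries of batch 2, the count was 3 of 56. Where no share of all genes stands beside a count, it is not given for that fit, and the count cannot be set against it. The levels show how far the gonad libraries were apart. RPL7 stood at 2304 and 168 CPM in them, RPS6 at 1254 and 48.8 CPM, and RPL4 at 2038 and 169 CPM. RPS19BP1 went the other way, with 19.0 and 42.4 CPM.

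Ribosomal protein mRNA was lowest in brain. RPL7 stood at 586 and 498 CPM in the neotenic brain libraries and at 526 CPM in the metamorphosed one, against a neotenic range of 168 to 7098 CPM with a median of 2522 CPM. RPS6 stood at 375 and 174 CPM in neotenic brain, against a neotenic median of 1119 CPM. RPL27A, a large subunit protein, stood at 22.3 and 14.5 CPM, against a neotenic median of 91.0 CPM. Of the neotenic libraries, gonad of batch 2 was lower than both brain libraries for each of these 3 genes.

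Against the mean of the other 16 tissues, 28 of 54 members were lower in neotenic brain at an adjusted p of 0.05 by edgeR's quasi-likelihood test, and none was higher. Of all genes, 16% were lower. The median log2 difference of the members was -1.81, that of all genes -0.07, and all 54 members had a negative estimate. The largest falls were those of RPL27A (-2.38 ± 0.59 SE, adjusted p = 0.002854) and RPS3A (-2.28 ± 0.74 SE, adjusted p = 0.01737). RPL4, RPL8, which lies near the peptidyl transferase centre, RPL10A, RPL22, an RNA-binding protein of the large subunit, Rpl11, which acts with RPL5 in the 5S particle and binds MDM2, RPS3 of the mRNA entry site, RPS6, rps25 and 1 of 2 models of RPSA, a laminin-binding protein of the small subunit, were also lower, by between 1.52 and 2.17 on the log2 scale. RPL8 passed narrowly, with an adjusted p of 0.04983. rps2 (-1.83) and RPS19 (-1.56), whose human gene is mutated in Diamond-Blackfan anaemia, did not pass. RPS19BP1 (-0.22) had one of the smallest estimates.

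With the batch as a block 46 of 54 members were lower in brain, where 16.5% of all genes were, and DESeq2 called 39. Without both gonad libraries 46 of 54 were lower, where 20.7% of all genes were, and in that fit other tissues had member calls as well. 23 were lower in eye, where 11.2% of all genes were, 6 were higher in cloacal chamber, where 14.3% were, and 6 in hind limb, where 12.3% were. Leaving out 1 of the brain libraries left 2 and 1 of them called. With DESeq2's size factors in edgeR the count was 20, and without the stomach and tail libraries of batch 2 it was 26 of 56. For the brain counts with no share of all genes beside them, that share is not given. Neuron markers stood at 2063 and 919 CPM in the brain libraries and at most at 512 CPM in any other neotenic library, and their part in the difference was not tested.

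Outside brain, 3 members passed in 1 tissue each by the same test. The model rps28p9 was higher in cloacal chamber by 1.46 on the log2 scale (adjusted p = 0.04167, where 10.8% of all genes were higher). It stood at 1703 CPM in batch 1 and 477 CPM in batch 2 there, against a neotenic median of 416 CPM. RPL7L1 was lower in eye (-1.20, adjusted p = 0.02263, where 5.12% of all genes were lower), with 87.7 and 69.4 CPM. RPS19BP1 was lower in spleen (-1.47, adjusted p = 0.002184, where 16.3% of all genes were lower), with 10.2 and 6.15 CPM in neotenic spleen and 34.7 and 27.7 CPM in neotenic heart. Over the 50 well-counted members, the lowest tissue mean was that of brain for 26 and of gonad for 23, and the highest was that of skin for 21, hind limb for 12 and lung for 9.

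Genes that work with the ribosome were lower in brain too. Of 15 tested companions of translation, which are elongation factors, initiation factor 3 subunits and the like, 13 were lower and none higher by edgeR's test, with a median of -1.38. eef1b2.L fell by 2.16 and EEF1A1, the factor that brings aminoacyl-tRNA, by 1.96 on the log2 scale. Of 29 tested genes of ribosome assembly, 14 were lower and 1 higher, with a median of -0.88. The box C/D protein nop58 fell by 2.51, and UBTF, a factor of RNA polymerase I, was higher by 1.00. Of 15 tested genes of the mTOR pathway 3 were lower and 1 higher, with a median of -0.26. Of all genes 16% were lower and 23.7% higher.

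The state comparison asked which genes differ after induced metamorphosis in the 12 tissues with 2 libraries per state. It was fitted to all 61 libraries and 20216 genes, of which 59 were members, and 8 members were not tested for low counts. Within single tissues 2 member calls were made, both in skin, where 4.89% of all genes passed. No member passed in the other 11 tissues, where 0.717% of all genes passed in tail, 0.599% in hind limb, 0.49% in spleen, 0.0198% in liver, 0.00495% in bladder and 0% in the rest. rpl3 stood at 28.9 and 18.3 CPM in neotenic skin and at 0 and 0.770 CPM in metamorphosed skin (adjusted p = 0.01895). RPS13 (AMEXTC_0340000142309_RPS13) stood at 179 and 130 CPM and at 16.1 and 21.9 CPM (adjusted p = 0.0454). In metamorphosed skin of batch 1, 3 counts amount to 24.2 CPM, so that neither level of that library is above the limit of a few counts. In skin 2.68% of all genes were lower by the same test, and both calls were not kept together in any fit that left out 1 skin library. The estimates were largest in stomach, where 54 of 59 members had a higher estimate in metamorphosed libraries, with a median of 1.49 against 0 for all genes. In stomach 16 members had an unadjusted p under 0.05, all higher, where 1754 of 20216 genes had one in either direction. Of the members 0 passed the adjustment with edgeR. DESeq2 called 1. Of these libraries, neotenic stomach of batch 2 goes against its label. Median estimates in the other tissues ran from -0.69 in lung to 1.28 in eye. The test of whether the state difference varies among the 12 tissues called 0 members and 0.0693% of all genes with edgeR. At an unadjusted p under 0.05 it was 0 members and 2016 of 20216 genes.

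Averaged over the 12 tissues, 21 members were higher and 1 was lower in metamorphosed axolotls by edgeR's quasi-likelihood test at an adjusted p of 0.05. Of all genes 10.9% were higher and 7.01% were lower. The median log2 difference of the 59 members was 0.44, and that of all genes 0.02. Higher members came from both subunits and included RPL13A, RPL36, rps24, whose human gene is mutated in Diamond-Blackfan anaemia, RPL28, RPL8, RPL10A, rps2 and RPS3A. RPL13A (model AMEXTC_0340000135861_RPL13A) is a large subunit protein that in mammals also represses the translation of some inflammatory mRNAs. Over the 12 tissues its neotenic medians were 238 and 154 CPM in batches 1 and 2, and its metamorphosed medians were 331 and 806 CPM. Over all libraries, with tissues outside the average among them, it stood between 10.4 and 468 CPM (median 138) in neotenic ones. In all metamorphosed libraries it stood between 134 and 1694 CPM (median 567). Its average difference was 1.72 ± 0.29 (SE, adjusted p = 7.396e-05). For RPL36 the medians over the 12 tissues were 123 and 87.8 CPM in neotenic and 154 and 561 CPM in metamorphosed batches 1 and 2. Over all libraries it stood between 3.35 and 314 CPM (median 74.8) in neotenic and between 45.2 and 897 CPM (median 229) in metamorphosed ones. Its average difference was 1.67 ± 0.32 (SE, adjusted p = 0.0004045). The ranges of the states overlapped for both.

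RPL7, RPL4 and the main models of RPL17 and RPS7, which are among the most abundant members, had estimates of 0.12, 0.08, -0.02 and 0.01 and did not pass. RPS6 (0.55), RPS19 (0.46), RPS3 (0.20), rps25 (0.30), RPL22 (0.0048), Rpl11 (0.65), RPL26L1 (0.32), RPL7L1 (0.08), rps28p9 (0.31) and RPS19BP1 (0.24) did not pass either. The lower member was rpl3, at -1.18 ± 0.23 (SE, adjusted p = 0.0003882). Over the libraries of all tissues it stood between 1.02 and 43.2 CPM in neotenic and between 0 and 37.5 CPM in metamorphosed axolotls. This is the model that shares exon bases with rpl3.L. The largest estimate was that of rps27a, 2.78, which rests on 399 counts with 3 counts or fewer in 31 of 34 neotenic and 21 of 27 metamorphosed libraries. Its size depends on the fit and bounds nothing. The same holds for RPL5 and rps21, which with rpl3 had the 3 lowest estimates, and for which 23 of 34 and 21 of 34 neotenic libraries had 3 counts or fewer.

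This average rested on some libraries more than others. The share of all genes is given for some of the fits below and not for the others. Without the stomach and tail libraries of batch 2, 20 members were higher and 1 lower. With the batch as a block it was 23 and 1. Without the 4 metamorphosed libraries of skin, limbs and bladder with the high intestine marker sums, 10 of 56 members were higher, where 3.29% of all genes were, and 1 lower. With the tissues of a batch averaged first, so that 4 state-by-batch means enter a limma fit, 0 members passed with limma, and 10 had an unadjusted p under 0.05 in the higher direction, where 4.07% of all genes did, and 2 in the lower.

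The state difference of the members depended on the batch number. Whether a number stands for the same batch in both states is not given by the labels. In batch 1 the share of counts was higher in the metamorphosed library in 6 of 12 tissues, with means of 3.41% ± 1.24 (SD, n = 12 tissues) in neotenic and 3.43% ± 1.47 in metamorphosed libraries. In batch 2 it was higher in 11 of 12 tissues, all but lung, with means of 2.98% ± 0.949 and 4.77% ± 1.15. In cloacal chamber the share went from 4.84% to 2.90% between the states in batch 1 and from 2.12% to 5.84% in batch 2. In spleen it was higher in both, from 3.92% to 5.62% and from 2.94% to 5.63%. Without stomach and tail it was higher in 4 of 10 tissues in batch 1 and in 9 of 10 in batch 2.

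**Figure D3:**
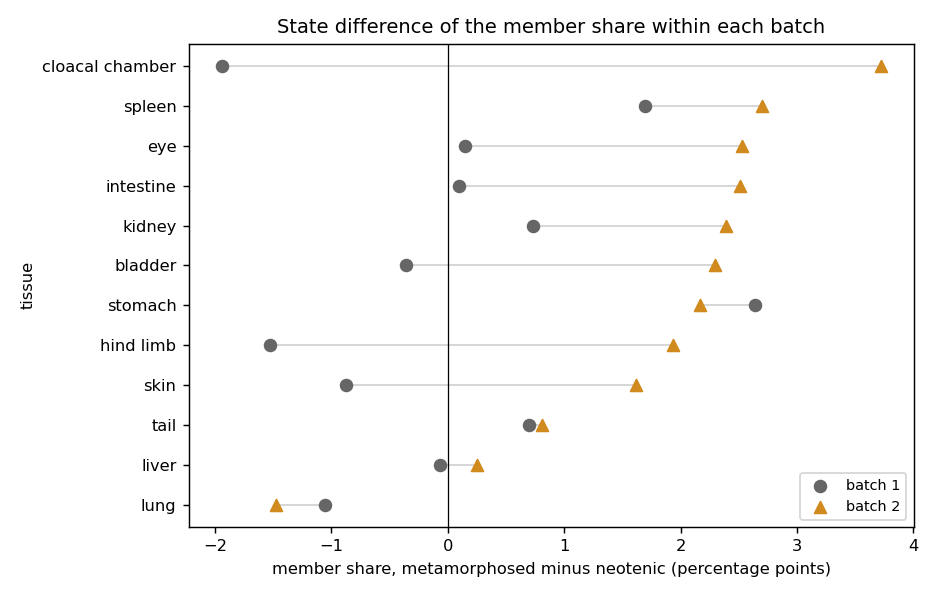
Difference in the share of library counts in ribosomal protein genes between the metamorphosed and the neotenic library of a tissue (percentage points), for batch 1 (grey circles) and batch 2 (orange triangles) in 12 tissues. Lines join the values of a tissue. Values lie above 0 in 6 of 12 tissues in batch 1 and in 11 of 12 in batch 2.

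In the fit with the batch as a block within each state, the metamorphosed libraries of batch 1 had 0 members higher and 3 lower by edgeR's quasi-likelihood test, where 3.12% of all genes were higher and 3.83% lower. The 3 were rpl3, Rps16-ps2 and 1 of the models of RPSA (AMEXTC_0340000070788_rpsa.S). In batch 2, 42 of 59 members were higher and 1, rpl3, was lower, where 17.3% of all genes were higher and 14.8% lower. Median log2 differences were -0.27 and 1.06, and those of all genes 0.04 and -0.0037. The neotenic batch term of this fit covered all 17 neotenic tissues, with the gonad pair among them. No fit of the batches without gonad was made. As plain means of log2 CPM differences over the 12 tissues, the member medians were -0.17 in batch 1 and 0.89 in batch 2. The difference between the batches was itself tested, and 42 of 59 members passed, all with the larger value in batch 2, where 11.7% of all genes did so. The median of this difference was 1.37. Without the 4 metamorphosed libraries of skin, limbs and bladder 37 of 56 members passed, where 7.94% of all genes did, and without the stomach and tail libraries of batch 2 it was 45 of 59, where 11.9% did. At an unadjusted p under 0.05 there were 12 of 59 members in batch 1, all lower. Of all genes 4272 of 20216 passed this threshold in either direction, a similar share.

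Both states contributed to it. From batch 1 to batch 2 the members had a median log2 difference of -0.57 in neotenic axolotls, where 1 member, Rps16-ps2, was lower at an adjusted p of 0.05 and 38 were lower at an unadjusted p under 0.05. Of all genes 0.866% were lower at the adjusted threshold, and 2339 of 20216 had an unadjusted p under 0.05 in either direction. In metamorphosed axolotls the median was 0.85 and 36 members were higher, where 16.3% of all genes were. Without the 4 libraries of skin, limbs and bladder the median was 0.79 and 11 of 56 members passed, where 9.32% of all genes did. Markers of other tissues were also higher in metamorphosed batch 2. Over 11 tissues other than liver, the sum of the 10 matched liver markers was higher in batch 2 in 10, with a median of 313 CPM (highest 2571) in batch 1 and 683 CPM (highest 1620) in batch 2. Over 11 tissues other than intestine, the sum of the 7 intestine markers was higher in batch 2 in 8, with a median of 216 CPM (range 3.31 to 22615) in batch 1 and 747 CPM (range 146 to 16866) in batch 2. In neotenic libraries the sums were higher in batch 2 in 1 and 2 of 11 tissues. The part of these markers in the batch difference was not tested. RPS6 shows the pattern in its levels over the 12 tissues. In neotenic libraries its median was 1465 CPM in batch 1, with a range from 695 to 3037, and 1185 CPM in batch 2, with a range from 290 to 2288. In metamorphosed libraries it was 1392 CPM in batch 1, with a range from 628 to 2469, and 2310 CPM in batch 2, with a range from 1029 to 4336. The means of RPS6 over the 12 tissues were 10.46 and 10.21 log2 CPM in neotenic batches 1 and 2. In metamorphosed batches 1 and 2 they were 10.39 and 11.25.

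Members differed in how far they shifted. Rps16-ps2, which carries a pseudogene symbol and is counted at the level of a core gene, had medians of 191 and 89.6 CPM in neotenic batches 1 and 2 and of 101 and 619 CPM in metamorphosed batches 1 and 2. In the fit with the block its state difference was -0.99 ± 0.30 (SE) in batch 1 and 2.83 ± 0.28 in batch 2. RPL13A had 0.48 and 2.70, and RPL36 had 0.25 and 2.76. The plain means over the 12 tissues were -0.76 and 2.65 for Rps16-ps2. They were 0.67 and 2.54 for RPL13A (AMEXTC_0340000135861_RPL13A) and 0.45 and 2.53 for RPL36. RPL7L1 and RPS19BP1, a paralogue and the binding protein, moved little, with 0.44 and 0.52 in batch 2 of the fit. Some core members moved as little. In the plain means of batch 2, RPL7L1 had 0.43 and RPS19BP1 0.56, and RPL22 had 0.36, RPL7 0.47 and RPL4 0.48. RPL26L1, the other paralogue, had 0.70.

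**Figure D4:**
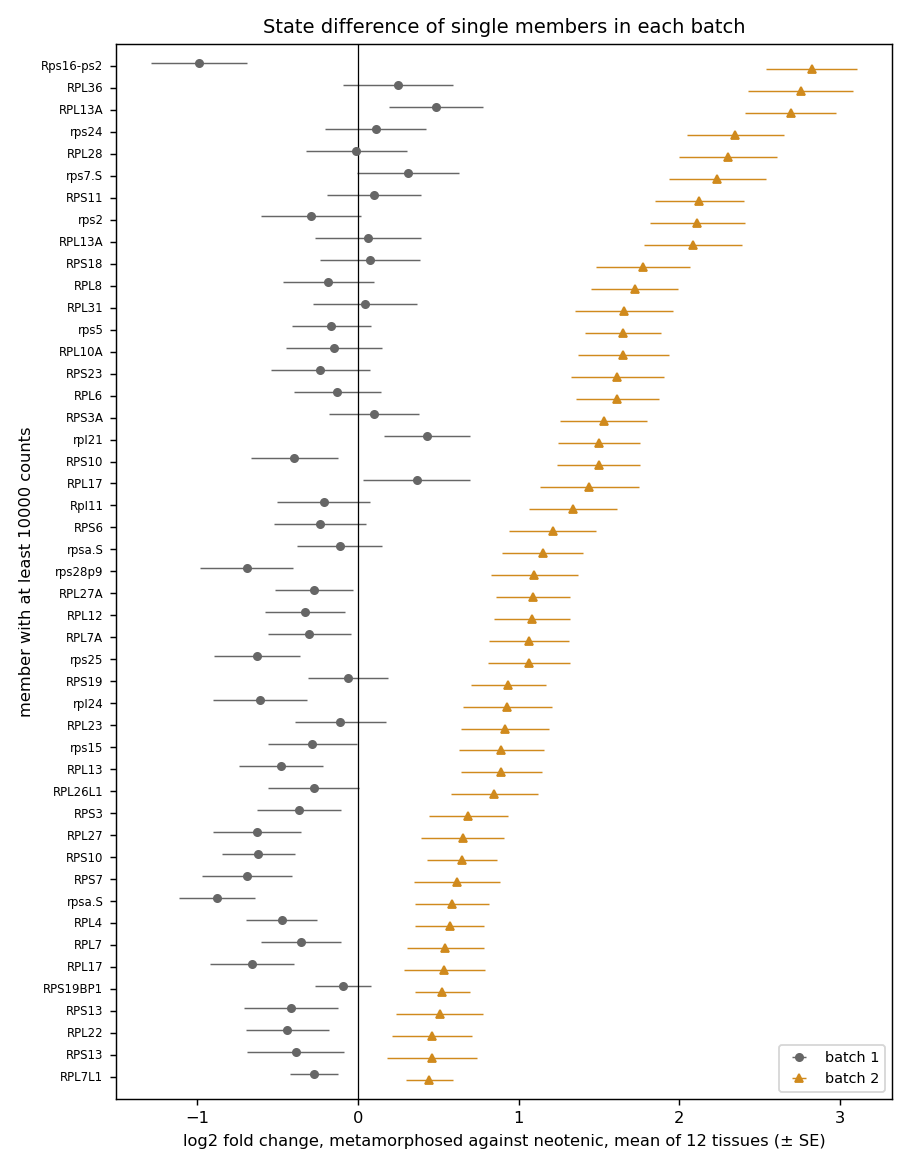
Log2 fold change, metamorphosed against neotenic, averaged over 12 tissues, for 47 of the 50 members with at least 10000 counts in batch 1 (grey circles) and batch 2 (orange triangles), with standard errors of the fit as bars. A symbol listed more than once stands for different gene models. Batch 1 values lie between -0.99 and 0.49, and batch 2 values reach 2.83.

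Some proteins had 2 well-counted models under 1 symbol, and the ratio of the models within a library is free of the library's scaling. For RPS7, a small subunit protein, the log2 ratio of RPS7 to rps7.S was 3.47 ± 0.49 (SD, n = 34) in neotenic and 2.06 ± 0.65 (SD, n = 27) in metamorphosed libraries. It lay between 2.55 and 4.41 in the former and between 0.60 and 3.17 in the latter. The difference was present in each batch, with 3.41 against 2.30 in batch 1 and 3.46 against 1.90 in batch 2. For RPL17, which lines the exit tunnel, the ratio of its models was 4.22 ± 0.51 and 3.29 ± 0.72. It was 4.18 against 3.05 in batch 1 and 4.17 against 3.41 in batch 2. Its ranges overlapped, from 3.29 to 5.37 in neotenic and from 2.34 to 4.92 in metamorphosed libraries. For RPL13A the ratio was 2.09 ± 0.31 and 2.65 ± 0.60, with a higher mean in metamorphosed libraries in both batches (2.12 against 2.48 and 2.04 against 2.70). The 4 libraries with high intestine marker sums had RPL13A ratios between 3.30 and 4.01. Their RPS7 ratios, between 0.60 and 1.40, were the lowest. Their RPL17 ratios were 4.92 in skin, 4.87 in hind limb and 4.74 in fore limb, above the neotenic mean, and 3.72 in bladder. In metamorphosed kidney, cloacal chamber and liver of batch 2 the RPL13A ratio was 1.63, 1.80 and 1.90, below the neotenic mean. No mean without the 4 libraries is given.

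Of the other pairs 1 kept its ratio, and those of RPS10 and RPSA were lower in metamorphosed libraries in both batches. The 2 models of RPS13 lay at 0.01 ± 0.12 in neotenic and 0.04 ± 0.15 in metamorphosed libraries, and their levels had a correlation of 0.99 over 61 libraries. For RPS10 the log2 ratio was 0.91 against 0.64 in batch 1 and 1.03 against 0.22 in batch 2, and for RPSA 1.55 against 0.66 and 1.54 against 1.06. These values are descriptions with no test. A ratio shows that 2 models changed unequally and not which of them changed.

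**Figure D5:**
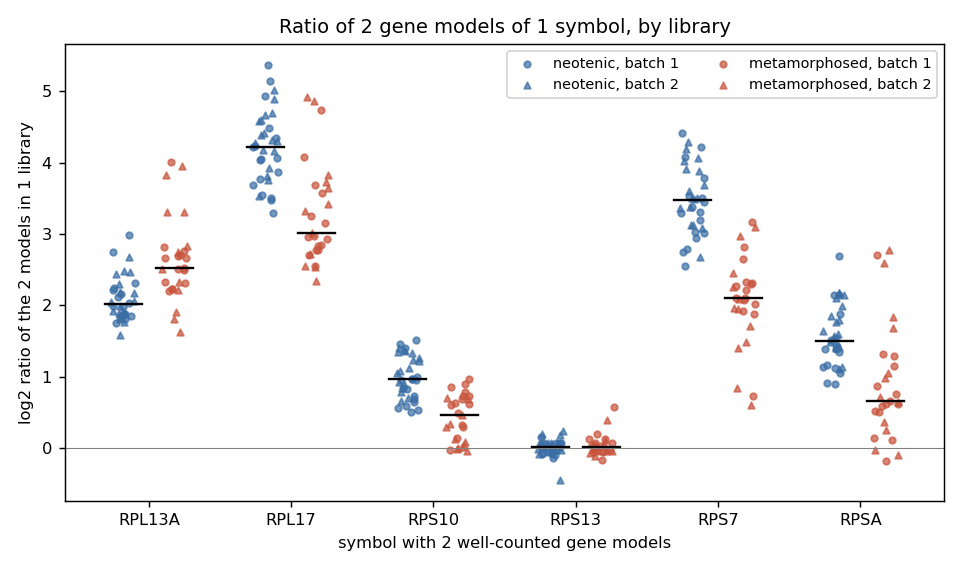
Log2 ratio of the counts of 2 gene models of 1 protein within a library, for 6 proteins with 2 models of at least 10000 counts, in neotenic (blue) and metamorphosed (red) libraries. Circles are batch 1, triangles batch 2 and black lines medians. The ratio of RPS7 has a mean of 3.47 in neotenic and 2.06 in metamorphosed libraries, and that of RPS13 stays near 0 in both.

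On average over the 12 tissues few of the listed translation genes outside the group passed, where 10.9% of all genes were higher and 7.01% lower. Of 15 tested companions of translation 1 was higher by edgeR's test, RACK1 by 0.99, and none was lower, with a median of 0.11. Of 29 tested genes of ribosome assembly, ncl.S, the nucleolar protein nucleolin, was higher by 0.68, and nop58 and POLR1B, a subunit of RNA polymerase I, fell by 0.54 and 0.94 on the log2 scale. Of 15 tested genes of the mTOR pathway, RICTOR, a subunit of mTOR complex 2, was higher by 1.36, and rps6kb1, the kinase of RPS6, fell by 0.48. The batch pattern of the members was present in the first 2 of these lists. The state difference was larger in batch 2 for 8 of 15 companions and 11 of 29 assembly genes and smaller for none, where it was larger for 11.7% of all genes, and for 2 of 15 mTOR genes it was larger and for 2 smaller.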

How the data were processed

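Libraries were made from TRIzol-purified RNA by tagmentation and read from both ends. The submitters' processing notes name STAR, and the authors deposited raw counts, that is, fragments assigned by featureCounts 1.6.0 to the exons of 23251 AmexG_v3.0.0 gene models, without strand and without normalization. Samples were grouped by their labels. The count column of metamorphosed tail of batch 1 carried no tissue name and was assigned by its sample.

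Differences were tested with edgeR 4.0.16 in R 4.3.3 (TMM scaling, filterByExpr, quasi-likelihood F tests, Benjamini-Hochberg over all genes tested, threshold 0.05), with 1 coefficient per state and tissue. DESeq2 1.42.0, limma 3.58.1, other scalings, filters and fits, and leaving out each library were alternatives. The state fit was tried on simulated counts of independent libraries with changes planted in kidney alone. This does not test the average, the batch fit or the fit of the neotenic tissues. Exon sharing was computed from the exon coordinates in the deposited count tables. Members and lists were chosen with earlier results of these data known. Members were named by role, size of change, spread, agreement or an atypical symbol, and others after their values were seen, and some members are not reported here by name.

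The batch was fitted as a block within each state. Between tissues of a state, deviations of batch 1 from batch 2 had a mean correlation of 0.10 in neotenic and 0.29 in metamorphosed axolotls. Between the states, within the same tissue, the mean correlation was -0.02 over 12 tissues. The labels give batch numbers and do not say that a number stands for the same batch in both states.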

Additional observations from a re-analysis of the deposited data

Results flagged for a closer look

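The difference between the states in ribosomal protein genes differed between batch 1 and batch 2 for 42 of 59 members by edgeR's quasi-likelihood test of that difference with Benjamini-Hochberg adjustment, in each case with the larger metamorphosed value in batch 2. Of all genes 11.7% passed with the larger value in batch 2. Equivalently, the change from batch 1 to batch 2 differed between neotenic and metamorphosed axolotls for these 42 members. The labels do not say what a batch is or whether a number stands for the same batch in both states. What differs between the batches was not tested. Summed liver markers were higher in metamorphosed batch 2 than in batch 1 in 10 of 11 tissues other than liver, and intestine markers in 8 of 11 other than intestine. Metamorphosed intestine of batch 2, with 40.3 CPM in germline markers, was kept in all fits of this section. Without the 4 metamorphosed libraries of skin, limbs and bladder with the highest such intestine sums in their tissues, 37 of 56 members passed. Of all genes 7.94% passed in that fit with the larger value in batch 2.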

How the results depend on the processing

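The members differing on average over 12 tissues (22) were 11 without the 4 metamorphosed libraries with high intestine marker sums and 0 from the 4 state-by-batch means. In a fit chosen after seeing the data they were 3 within batch 1 and 43 within batch 2. Of all genes 10.9% were higher and 7.01% lower on average in the main fit. Within batch 1 it was 3.12% and 3.83%, and within batch 2 it was 17.3% and 14.8%. Leaving out 1 library gave 16 to 24 members on average, with 16 without metamorphosed skin replicate 2. The members differing among the 17 neotenic tissues (3) were 18 with the replicate block and 19 with DESeq2. Without both gonad libraries, chosen after seeing the data, they were 47. Of all genes 71.5% passed in the main fit, 72.3% with the block and 76.2% without gonad. Leaving out 1 library gave 2 to 50 members, with 5, 6 and 9 without intestine replicate 1, hind limb replicate 2 and cloacal chamber replicate 2. Summed over the comparisons of 1 tissue with the other 16 (31 calls), the count was 51 with the replicate block, 47 with DESeq2 and 4 to 83 when 1 library was left out. In skin (2 members), DESeq2 size factors and scaling from other genes gave 1 each, leaving out the 4 metamorphosed libraries gave 0, and leaving out 1 library gave 0 to 1. In hind limb leaving out 1 library gave 0 to 1, in spleen a fit of its 4 libraries gave 1 and in stomach DESeq2 gave 1. With the replicate block 46 members in place of 28 were lower in neotenic brain, and the block changed no other count given here by over 1.5 times. Within batch 1 of the fit with the block, the estimates of 9 of the 21 members higher on average were negative. Among them were RPL8 (-0.19) and rps2 (-0.29), and the median of all members was -0.27 in place of 0.44. In plain means over the 12 tissues, RPL8 had -0.02 and rps2 -0.09 in batch 1, and the median was -0.17. Under the other alternatives no member called on average, in skin or in brain changed its sign. Members with shared exon bases are limited by their counts, and metamorphosed skin replicate 1 by its depth. Where no share of all genes stands beside a count here, the count cannot be set against it.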

Other observations

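Brain, heart and fore limb had a single metamorphosed library and entered no test between the states. The share of counts in ribosomal protein genes was 1.42% in metamorphosed brain, between the neotenic values of 1.49% and 0.997%. In heart it was 2.46% against 2.77% and 2.06%, and in fore limb it was 4.80% against 4.04% and 2.24%. In gill, which was sampled in neotenic axolotls, it was 2.60% and 2.17%.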
